A study of Mus musculus with 24 samples.

Results

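The comparison described here sets 3 arrays of MLO-Y4 cells kept at the 2g position of a magnet platform against 3 arrays of cells kept in an incubator, all given an irrelevant rabbit IgG. The arrays were chosen by their titles, with no use of measured values, and make up 6 of the 24 arrays of the series. MLO-Y4 is a mouse cell line with osteocyte features. The study placed cells in a high magneto-gravitational environment (HMGE) at positions named 1g, 2g and μg (written ug here), kept control cells (C) in an incubator, and repeated all 4 environments with Cx43(E2), an antibody that blocks hemichannels of the connexin Cx43. Both groups described here received the irrelevant IgG at a dilution of 1:50 for 30 min at 37 °C in 5% CO2. The 2g group was then moved to the platform and the incubator group stayed in an incubator. How long the cells stayed there is not given in the sources used here. Both groups are 1 cell line, and nothing says that the 3 arrays of a group came from separate cultures, so p-values measure only the spread between these arrays. RNA came from whole cultures, in which fewer cells of a kind and less RNA per cell cannot be told apart.

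In such a magnet a field gradient pulls on the water of the cell. The pull offsets or adds to weight, so that the named positions stand for levels of apparent gravity, while the field itself is strong at all of them. The incubator has no magnet, so that force and field cannot be told apart in a comparison with it. Osteocytes are the cells within bone that sense mechanical load, and Cx43 hemichannels release small signalling molecules from them. The unfolded protein response, which recurs below, is the programme by which a cell raises chaperones and degradation factors of the endoplasmic reticulum when proteins there fold poorly.

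Values are log2 intensities as deposited, and a change is the log2 level at 2g minus that in the incubator, given ± its standard error (SE). The 4 arrays that share an antibody and a title number are called a set, and the 3 sets of the IgG arm are numbered as in the titles. The medians of the 24 arrays lay between 6.48 and 6.65, and 14489 genes were tested with limma. The marker genes Pdpn, Gja1 and Capg, all found in osteocytes, were bright in incubator cells at 12.75, 11.72 and 12.35, while those of mature osteocytes were dim or failed the filter on dim rows. Sost, which encodes the Wnt inhibitor sclerostin, stood at 6.90, and Dmp1, Mepe and Phex, matrix and phosphate genes of mature osteocytes, were below the filter. Of the markers of other cells, some defining ones were below the filter, among them Ptprc of leukocytes, Adgre1 of macrophages, Emcn and Kdr of endothelium, Epcam of epithelium and Adipoq of fat cells. Others of the same lists passed it: 8 of 11 macrophage and osteoclast markers, 9 of 11 endothelial, 5 of 7 epithelial and 5 of 7 adipocyte markers. Some of these were bright in incubator cells, such as Ctsk at 11.36, Eng at 11.56, Fabp4 at 10.19, Cd14 at 8.80 and Cd68 at 8.72.

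The promoters of 3 genes of the unfolded protein response that stood higher at 2g are shown first, because each holds an endoplasmic reticulum stress element, the motif read by ATF6 and XBP1 in this pathway. Each line gives the 250 bases before the RefSeq start site of the GRCm38.p6 build, 5′ to 3′ on the gene's strand, with the motif in capitals. The windows are chr8:94386179-94386428 for Herpud1, chr19:6046326-6046575 for Syvn1 and chr15:88819396-88819645 for Creld2, all on the plus strand.
Herpud1: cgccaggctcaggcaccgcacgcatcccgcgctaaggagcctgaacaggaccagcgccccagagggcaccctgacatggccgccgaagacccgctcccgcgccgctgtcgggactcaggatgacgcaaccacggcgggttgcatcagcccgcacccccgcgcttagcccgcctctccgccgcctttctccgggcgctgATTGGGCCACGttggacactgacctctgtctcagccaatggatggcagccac
Syvn1: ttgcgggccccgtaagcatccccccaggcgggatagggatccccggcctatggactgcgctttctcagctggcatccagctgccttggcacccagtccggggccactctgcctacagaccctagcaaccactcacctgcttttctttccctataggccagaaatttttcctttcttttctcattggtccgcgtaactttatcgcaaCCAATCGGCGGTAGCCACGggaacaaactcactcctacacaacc
Creld2: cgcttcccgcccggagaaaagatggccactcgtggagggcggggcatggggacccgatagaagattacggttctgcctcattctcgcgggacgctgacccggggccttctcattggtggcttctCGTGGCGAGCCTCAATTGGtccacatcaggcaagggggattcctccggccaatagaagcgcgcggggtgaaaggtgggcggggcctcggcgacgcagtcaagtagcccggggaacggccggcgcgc

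The first form of the element, CCAAT and CCACG held apart by 9 bases, was searched on both strands. It stood in the windows of Syvn1 and, on the minus strand, of Creld2. In all it was found in 9 of the 26 genes of the unfolded protein response list that had a window, against 0.13% of all 27025 genes with one and 0.113% of all 32851 windows of the table, some genes having several. The second form, ATTGG and CCACG held apart by 1 base, stood in Herpud1 alone among the 26 genes and in 0.037% of all genes. Both forms share the CCACG end. The TGACG-TGG core, read without a gap, was in none of the 26 genes and in 0.603% of all. A match is a description of these letters and not of a bound site, and members without a match in this window are described by their values alone. Of the 9 genes with the first form, Syvn1 and Creld2 had an unadjusted p under 0.05, and the other 7 (Calr, Canx, Derl3, Dnajc3, Hsp90b1, Hspa5 and Pdia6) had changes of 0.06 or less. Sdf2l1 and Pdia4 also had such a p but no match in their windows, and Hyou1 had such a p but no window.

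The question was which genes of IgG-treated cells stood apart at 2g. No gene passed the threshold over all genes: limma called 0 of 14489 at an adjusted p under 0.05 (0%), and the smallest adjusted p was 0.493. With the set as a block the count was also 0, with a smallest adjusted p of 0.053 that 18 genes shared. At an unadjusted p under 0.05 there were 1272 genes, or 8.78% of those tested, 738 of them higher at 2g (5.09%) and 534 lower (3.69%). With the block there were 2555 such genes (17.6%), 937 higher (6.47%) and 1618 lower (11.2%). The 3 arrays at 2g lay wholly above the 3 incubator arrays for 1495 genes (10.3%) and wholly below for 1299 (8.97%). Changes were small: 3 genes exceeded 0.5, 24 lay below -0.5 and 0 exceeded 1 in either direction.

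The 3 sets did not contribute alike. The difference between the 2g and the incubator array had an SD over genes of 0.176 in set 1, 0.229 in set 2 and 0.127 in set 3, and 118, 540 and 27 genes differed by more than 0.5 either way. Across genes, which are not independent replicates, the differences of sets 1 and 2 correlated at 0.573, those of sets 1 and 3 at 0.266 and those of sets 2 and 3 at 0.318. The count of genes at an unadjusted p under 0.05 was 181 without set 2, 679 without set 1 and 2669 without set 3. Leaving out the 2g array of set 2 alone gave 760 such genes, and leaving out its incubator array alone gave 557. Gem, which encodes a small GTP-binding protein, was chosen after its values were seen. It had the highest change of all genes tested, at 0.74 ± 0.75, with levels of 6.41, 6.06 and 6.76 in the incubator and 6.05, 8.69 and 6.72 at 2g. Only the 2g array of set 2 was high, and the groups overlapped.

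Over all genes 50.2% were higher at 2g, but the direction differed with brightness. Among the 7245 brighter genes, those at or above the median level of 8.41, the median change was -0.03 and 36.1% were higher at 2g. Among the 7244 dimmer genes the median change was 0.06 and 64.3% were higher. At an unadjusted p under 0.05, 37 brighter genes were higher and 251 lower, while 701 dimmer genes were higher and 283 lower. In 5 equal bins of genes from the dimmest to the brightest, the median change was 0.10, 0.06, -0.05, -0.04 and -0.02. Sets 1 and 2 showed this slope, with medians of 0.13 and 0.15 in the dimmest bin, and set 3 hardly did, with 0.02. After quantile normalization 53% of brighter genes and 60.5% of dimmer genes were higher, and after cyclic loess normalization 48.3% and 52.4% were. The counts of brighter genes at an unadjusted p under 0.05 then became 155 higher and 110 lower (quantile) and 101 higher and 141 lower (cyclic loess). The slope differed with the scaling between arrays, and the scaling behind the deposited values is not given in the sources used here, so brighter and dimmer genes are described apart. Over all genes these scalings moved the median change from 0.00 to 0.02 and 0.00.

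**Figure D1:**
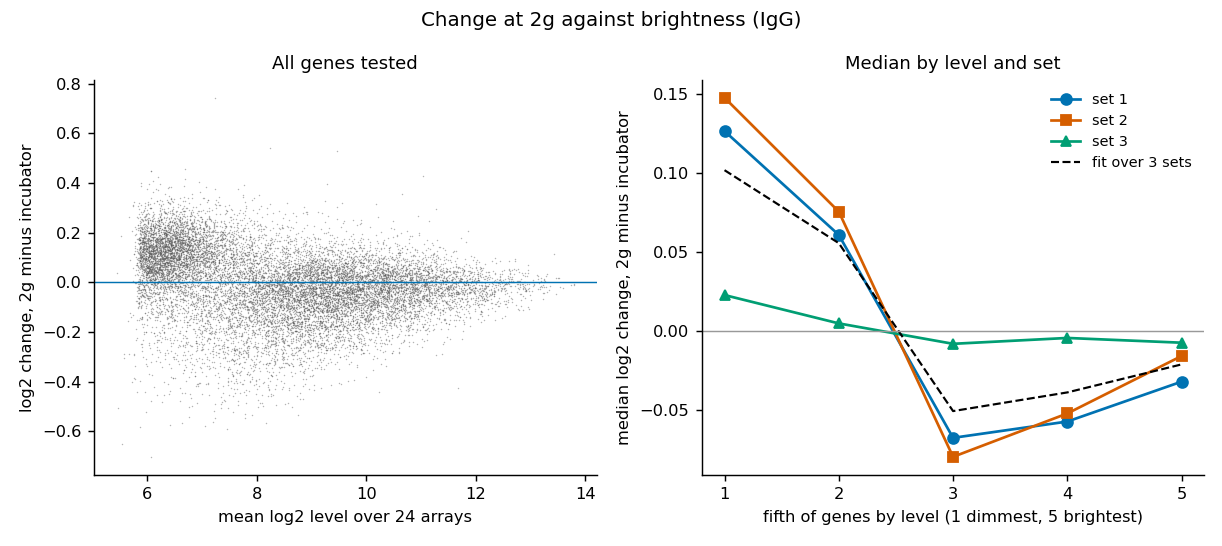
Left, the log2 change at 2g against the mean log2 level over 24 arrays, with 1 point a gene. Right, the median change in each of 5 bins of genes by level, for each set and for the fit; sets 1 and 2 run from 0.13 and 0.15 in the dimmest bin to below 0 in the 3 brighter bins, and set 3 runs from 0.02 to -0.01.

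The 3 sets differed in the same direction for 6678 genes (46.1%). A total of 1029 genes (7.1%) had an unadjusted p under 0.05, arrays that did not overlap and the same direction in 3 of 3 sets: 601 higher (4.15%) and 428 lower (2.95%). Of the 601, 30 were brighter genes, and of the 428, 207 were. By gene type, 89.5% of those higher and 98.4% of those lower were protein coding, beside 95.1% of all genes, and the genomic span of the gene had a median of 13.4 kb and 30.4 kb, beside 20.1 kb. Dimmer genes had a shorter span than brighter ones in general (17.3 kb and 22.8 kb), yet the 221 dimmer genes that were lower had a median of 41.6 kb. These are descriptions of genes picked on the same values. The genes named next are the 12 brighter ones with the largest change in each direction; all of them met the 3 conditions, none passed over all genes, and their adjusted p ran from 0.493 to 0.567.

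Herpud1 had the largest change among the brighter genes that were higher. It encodes a membrane protein of the endoplasmic reticulum that helps send misfolded proteins to degradation. Its levels were 10.62, 10.55 and 10.82 in the incubator and 11.32, 10.94 and 11.02 at 2g, so each 2g array lay above every incubator array. The change was 0.43 ± 0.16 (34.5% higher, unadjusted p = 0.0125), and set 1 differed the most. Banp, a nuclear DNA-binding protein, stood at 8.74, 8.99 and 8.97 in the incubator and at 9.16, 9.36 and 9.37 at 2g. Its change was 0.40 ± 0.13, near the same in all 3 sets. Banp and Serpinh1 were the genes called in either of the fits that combined the set block with quantile or cyclic loess normalization, both added after the data were seen: Banp at 0.45 ± 0.07 (limma, adjusted p = 0.0235) and 0.42 ± 0.07 (adjusted p = 0.0312).

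Serpinh1 encodes Hsp47, the chaperone that collagen needs in the endoplasmic reticulum. It stood at 10.68, 10.78 and 10.75 in the incubator and at 11.08, 10.98 and 10.94 at 2g. The change was 0.27 ± 0.07 (20.3% higher) with the arrays apart, and the combined fits gave 0.30 ± 0.05 (adjusted p = 0.038) and 0.30 ± 0.045 (adjusted p = 0.0312). Its client Col1a2, chosen after its values were seen, had a change of 0.19 ± 0.09. Of 28 extracellular matrix genes tested, 22 were higher and 6 lower, with 1 at an unadjusted p under 0.05 and a median of 0.04, beside a median of 0.00 over all genes. The set medians were -0.01, 0.05 and 0.09, and without set 3 the list had 18 higher and 10 lower. Its median was -0.028 at 1g and -0.025 at ug, each against the incubator.

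Myo18b encodes an unconventional myosin known from muscle. It stood at 9.92, 9.73 and 10.18 in the incubator and at 10.30, 10.21 and 10.27 at 2g, a change of 0.32 ± 0.10. Its 16 rows on the array were all higher at 2g, between 0.04 and 0.32. Cspp1, a centrosome and spindle gene, looked alike by its brightest row (8.09, 8.14 and 8.43 against 8.54, 8.49 and 8.57, change 0.32 ± 0.10). Of its other 13 rows, however, 11 were lower, and the mean of its rows had a change of -0.07, so the gene has no settled direction. Trmt1l, a relative of tRNA methyltransferases, stood at 8.57, 8.85 and 8.91 in the incubator and at 9.04, 8.93 and 9.20 at 2g, a change of 0.28 ± 0.13. Its lowest 2g array lay barely above its highest incubator array.

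The other 6 brighter genes that were higher ranged from 0.25 to 0.28. They were Syvn1, described with its pathway below, the predicted genes Gm10575 and Gm10874, the microRNA locus Mir341, Tmem151a and Atoh7, a transcription factor of retinal development. Gm10575 stood at 8.33, 8.39 and 8.49 in the incubator and at 8.59, 8.75 and 8.70 at 2g.

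Among the brighter genes that were lower, Olfr810, an olfactory receptor gene, stood at 9.59, 9.35 and 9.21 in the incubator and at 8.997, 8.80 and 8.75 at 2g, a change of -0.53 ± 0.17. Riok1 and Riok2 encode kinases needed to finish the small ribosomal subunit. Riok1 stood at 8.95, 8.95 and 8.82 in the incubator and at 8.49, 8.48 and 8.47 at 2g, a change of -0.43 ± 0.11 (-25.7% on the linear scale, unadjusted p = 0.000785). Its 3 arrays at 2g lay close together, all below the incubator arrays. Riok2 had a change of -0.44 ± 0.21, or ± 0.09 with the set block. Ddx10, an RNA helicase, stood at 9.15, 9.31 and 8.77 in the incubator and at 8.69, 8.55 and 8.52 at 2g, a change of -0.49 ± 0.20.

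Dennd4a and Dock11 encode activators of small GTPases. Dennd4a, which acts on Rab10, stood at 9.38, 9.25 and 9.15 in the incubator and at 8.78, 8.80 and 8.80 at 2g. The change was -0.47 ± 0.14, and its 9 rows on the array were all lower, between -0.47 and -0.31. Dock11, which acts on Cdc42, stood at 9.15, 9.21 and 9.20 in the incubator and at 8.69, 8.39 and 9.07 at 2g, a change of -0.47 ± 0.21. The array of set 3 at 2g lay close to the incubator arrays.

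Ankrd49 stood at 9.33, 9.37 and 8.90 in the incubator and at 8.89, 8.74 and 8.46 at 2g, a change of -0.50 ± 0.20. Each set was lower, but the incubator array of set 3 nearly met the 2g array of set 1. Marchf7, a ubiquitin ligase, had a change of -0.46 ± 0.17 and Bclaf1, an RNA-binding regulator of transcription, one of -0.43 ± 0.16. Ereg encodes epiregulin, a ligand of the EGF receptor. It was bright, at 12.26, 11.83 and 12.13 in the incubator and 11.72, 11.52 and 11.71 at 2g, a change of -0.42 ± 0.20. Exoc5, a subunit of the exocyst that tethers secretory vesicles, had a change of -0.42 ± 0.19. Zdhhc20, a palmitoyltransferase, had a change of -0.43 ± 0.14 by its brightest row, while its other row had a change of 0.09.

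**Figure D2:**
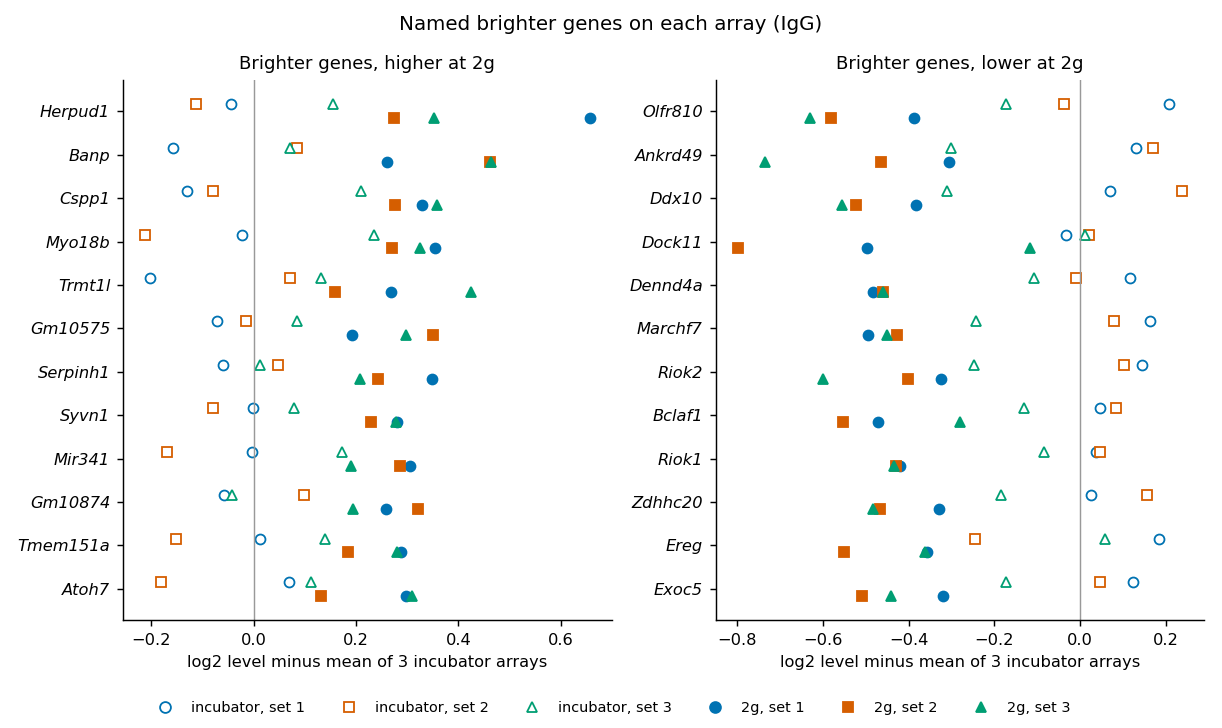
Log2 level on each of the 6 arrays minus the mean of the 3 incubator arrays, for the 12 brighter genes with the largest change in each direction that met the 3 conditions. Open symbols are incubator arrays and filled symbols are 2g arrays, with 1 colour a set; open and filled symbols do not overlap for any gene, which the choice of genes required.

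Among dimmer genes the largest changes were those of Olfr767, Iqcn, Avpr1a and Stpg3 (higher) and of Eid3, Zfp518a, 2610005L07Rik and Ccdc88a (lower). Avpr1a encodes a vasopressin receptor and stood at 6.0, 5.59 and 5.69 in the incubator and at 6.30, 6.24 and 6.08 at 2g, a change of 0.45 ± 0.12. Eid3, which encodes a relative of a subunit of a chromosome maintenance complex, stood at 7.08, 6.41 and 6.70 in the incubator and at 6.07, 6.01 and 6.0 at 2g, a change of -0.70 ± 0.25. That was the lowest change of all genes tested. Ccdc88a encodes girdin, which binds actin, and stood at 7.70, 7.80 and 7.35 in the incubator and at 7.05, 7.03 and 7.03 at 2g, a change of -0.58 ± 0.24. Stpg3 (0.42 ± 0.19) and Olfr767 (0.54 ± 0.21) rested on set 2, whose differences were 0.96 and 1.18 beside 0.12 and 0.38 in set 1 and 0.20 and 0.06 in set 3.

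Some genes had small p-values without the largest changes, and the first 4 below were chosen after their values were seen. Hnrnpdl, an RNA-binding protein, stood at 10.71, 10.76 and 10.62 in the incubator and at 10.46, 10.35 and 10.43 at 2g, a change of -0.28 ± 0.06. Denr, a factor for restarting translation, stood at 10.90, 10.88 and 10.76 in the incubator and at 10.57, 10.50 and 10.61 at 2g, a change of -0.29 ± 0.06. Trdmt1, a tRNA methyltransferase, had a change of -0.50 ± 0.11, and N6amt1, which methylates a translation release factor, one of -0.34 ± 0.08. Other genes, also chosen after their values were seen, had smaller p-values than Denr, Trdmt1 and N6amt1. Among them Hnf4aos (0.36 ± 0.08), Misp (0.41 ± 0.09) and Nrg2 (0.40 ± 0.09) were higher at 2g, and Etfrf1 (-0.48 ± 0.11) was lower. The smallest unadjusted p of the whole table, 4.7e-05, belonged to Bik. It encodes a pro-apoptotic protein of the BH3-only class and stood at 6.05, 6.12 and 6.13 in the incubator and at 6.44, 6.47 and 6.44 at 2g. The change was 0.35 ± 0.07, and the 3 sets differed by 0.30 to 0.39. Bik, by these levels, and Hnf4aos, Misp and Nrg2, by their mean levels, are dimmer genes. Of all dimmer genes 64.3% were higher at 2g. In the dimmest bin, which holds Hnf4aos and Misp, 81.2% were higher. Etfrf1 and Trdmt1 are dimmer genes too, and both were lower.

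The genes were next read by list: 29 lists of pathways and 11 of cell type markers, 40 in all. The mean level of a list on each 2g array lay outside the range of the 3 incubator arrays, on the same side, for 7 of the 40 (17.5%), 3 higher and 4 lower. That share is near the 19.3% of single genes whose arrays did not overlap. The 3 lists that stood higher were the unfolded protein response, the endothelial markers and the lymphocyte markers. The 4 that stood lower were the temperature-sensitive and splicing genes, oxidative phosphorylation, the targets of YAP and SRF with actin genes, and the cytosolic ribosomal proteins.

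**Figure D3:**
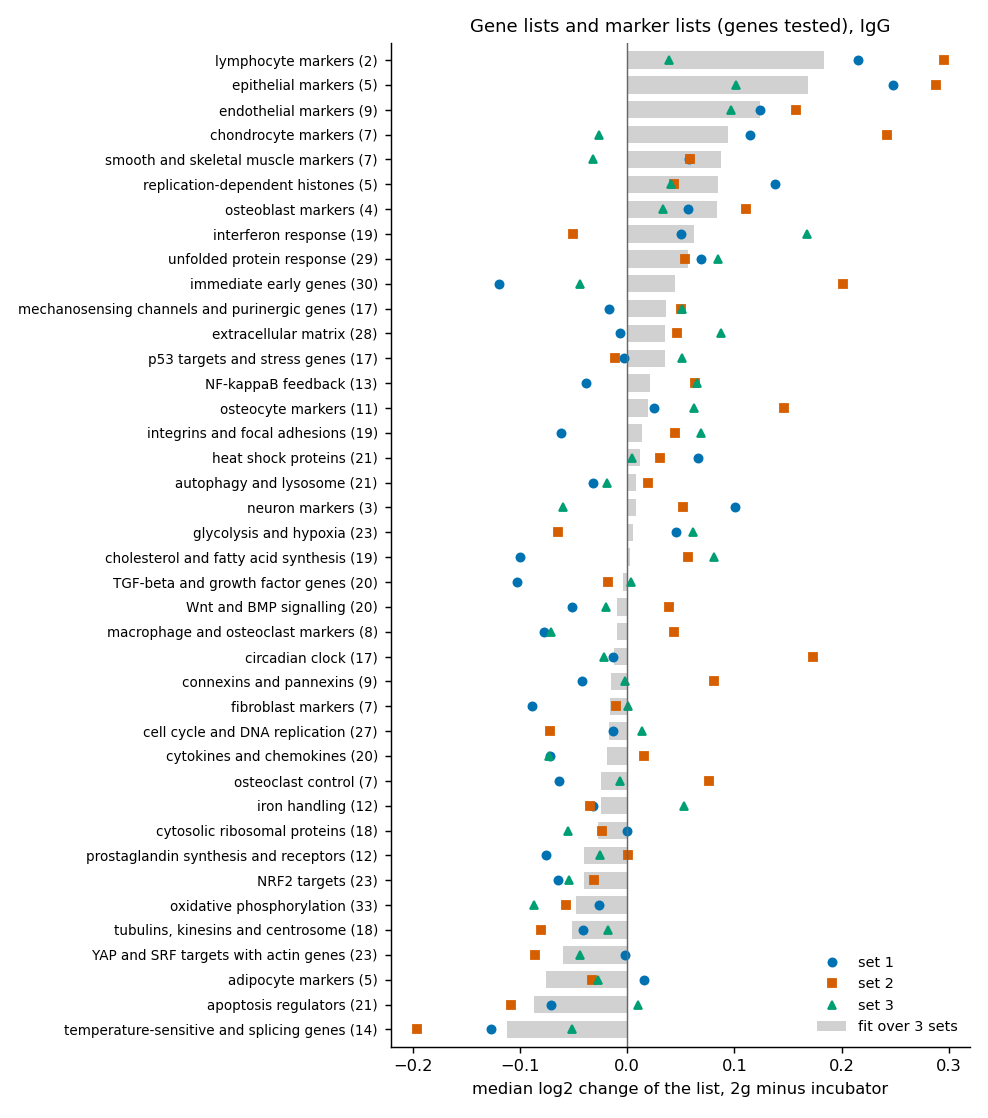
Median log2 change of each list, with the number of genes tested in brackets. Bars give the fit and symbols give each set; the temperature-sensitive and splicing genes have the lowest median (-0.11) and the lymphocyte markers, with 2 genes tested, the highest (0.18).

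The unfolded protein response had 23 of 29 members higher at 2g and 6 lower, with a median of 0.06. Its mean level was 10.69 to 10.71 on the incubator arrays and 10.76 to 10.82 at 2g, and the median was above 0 in each set (0.07, 0.05 and 0.09). An unadjusted p under 0.05 was found for 6 members, all higher, and the arrays did not overlap for 5, all higher. As 28 of the 29 are brighter genes, these counts stand beside 37 brighter genes of 7245 that were higher at an unadjusted p under 0.05 and 166 whose arrays lay wholly above. After quantile normalization 24 members were higher and 7 had such a p, and after cyclic loess 23 and 7. Without set 1 or without set 2, 1 member had such a p, and 21 and 23 members were higher. Without set 3, 20 members were higher and 9 lower, with 4 higher and 1 lower at such a p. With the set block 6 members were higher and 1 lower at such a p.

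The 6 members with such a p were Herpud1, described above, Hyou1, Syvn1, Creld2, Sdf2l1 and Pdia4. Syvn1 is the ubiquitin ligase of the endoplasmic reticulum and a partner of Herpud1 and of Sel1l. It stood at 9.96, 9.88 and 10.04 in the incubator and at 10.24, 10.18 and 10.23 at 2g. The arrays were apart, and the change was 0.26 ± 0.10 (20.0% higher, unadjusted p = 0.0206). Hyou1, a large chaperone of the endoplasmic reticulum, stood at 10.94, 10.87 and 10.83 in the incubator and at 11.03, 11.07 and 11.12 at 2g, a change of 0.20 ± 0.07. Creld2, a protein of the endoplasmic reticulum made under stress, stood at 11.78, 11.68 and 11.82 in the incubator and at 12.05, 11.84 and 11.89 at 2g. Its change was 0.16 ± 0.07, with a gap of 0.02 between the groups.

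Central members chosen after their values were seen had smaller differences or wider errors. Hspa5, the main chaperone of the compartment, stood at 13.04, 12.99 and 12.93 in the incubator and at 13.07, 13.01 and 13.03 at 2g. The groups overlapped, and the change was 0.05 ± 0.05. Xbp1, whose transcript is spliced by IRE1, had a change of 0.06 ± 0.09, and Atf4, the factor of the PERK branch, one of 0.05 ± 0.08. Ddit3, which encodes CHOP, had a change of 0.20 ± 0.20, and Sdf2l1, a chaperone cofactor, one of 0.30 ± 0.13 with overlapping arrays.

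Heat shock proteins, mostly chaperones of the cytosol, were 13 of 21 higher with a median of 0.01. Besides Serpinh1, which this list holds although it works in the endoplasmic reticulum, Hspb1 and Hspa1a had an unadjusted p under 0.05, and the count of such members was 0 without set 1 and 1 without set 2. These 3 members were all higher, and 20 of the 21 list members are brighter genes. Serpinh1 and Hspb1 stand beside 37 of 7245 brighter genes that were higher at such a p. Hspa1a lay below the median level of 8.41 on every array given here, and 701 of 7244 dimmer genes were higher at such a p. Hspb1, the small heat shock protein Hsp27, stood at 9.30, 9.38 and 9.21 in the incubator and at 9.66, 9.63 and 9.34 at 2g. The change was 0.25 ± 0.09, its second row had a change of 0.23, and the groups overlapped through set 3. Hspa1a, the inducible Hsp70, stood at 7.23, 7.68 and 7.51 in the incubator and at 8.07, 8.01 and 7.53 at 2g, a change of 0.39 ± 0.17. It too was near its incubator level in set 3. Dnajb4, a cochaperone, had a change of -0.19 ± 0.12. The heat shock element, read as GAA and TTC and GAA held apart by 2 bases each, was in the windows of Hspd1 and Hspe1 among 18 members with one, and in 0.514% of all genes. The windows of Hspd1 and Hspe1, which lie head to head on opposite strands, overlap and hold the same stretch, so that both members share 1 site.

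Temperature-sensitive and splicing genes had the lowest median of all lists. Of 14 tested, 12 were lower at 2g and 2 higher, with a median of -0.11. The mean level was 10.52 to 10.65 on the incubator arrays and 10.44 to 10.46 at 2g, with set medians of -0.13, -0.20 and -0.05. Among these, 3 had an unadjusted p under 0.05 and 6 had arrays that did not overlap, all lower; 13 of the 14 are brighter genes, of which 251 of 7245 were lower at such a p and 808 lay wholly below. With quantile and cyclic loess normalization 11 and 12 were lower, with medians of -0.09 both times. The count at such a p was 1 without set 1 and 1 without set 2.

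Cirbp and Rbm3 encode RNA-binding proteins known to rise in mild cold. Cirbp stood at 9.26, 9.36 and 9.46 in the incubator and at 8.90, 8.997 and 9.14 at 2g. Each set was lower by 0.32 to 0.36, and the change was -0.35 ± 0.15, or ± 0.06 with the set block (adjusted p = 0.053). Rbm3, far brighter, stood at 12.96, 12.96 and 12.94 in the incubator and at 12.86, 12.85 and 12.83 at 2g. Its change of -0.11 ± 0.04 was small and nearly equal in the 3 sets, and its other rows had a change of -0.12 and -0.11. Both genes were thus lower in every set, by a small and even amount for the brighter of them.

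Srsf5 and Srsf3 encode splicing factors of the SR family. Srsf5 stood at 9.88, 9.77 and 9.54 in the incubator and at 9.28, 9.37 and 9.29 at 2g, with the arrays apart. The change was -0.41 ± 0.14, its second row had a change of -0.40, and with the set block the adjusted p was 0.053. Srsf3 had a change of -0.18 ± 0.11, and its other rows by -0.17 and -0.54.

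Oxidative phosphorylation, the respiratory chain and ATP synthase of mitochondria, had 26 of 33 members lower and a median of -0.05. The mean level was 10.91 to 10.94 on the incubator arrays and 10.85 to 10.88 at 2g, and the list was lower in each set (-0.03, -0.06 and -0.09). At an unadjusted p under 0.05 there were 5 members, all lower (3.69% of all genes were), and for 7 the arrays lay wholly below the incubator (8.97% of all genes). As 30 of the 33 are brighter genes, these counts also stand beside 251 of 7245 brighter genes at such a p and 808 wholly below. With the set block 8 members had such a p, all lower. Scaling mattered: 20 of 33 were lower after quantile normalization and 19 after cyclic loess, with 2 members at such a p in each, and without set 1 or without set 2 there were 0.

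The 4 members with the smallest p came from 4 complexes of the chain. Ndufa1, of complex I, stood at 8.50, 8.52 and 8.33 in the incubator and at 8.21, 8.25 and 7.995 at 2g, a change of -0.30 ± 0.13. Uqcrfs1, the Rieske iron-sulfur protein of complex III, stood at 8.34, 8.31 and 8.33 in the incubator and at 8.17, 8.001 and 8.18 at 2g, a change of -0.21 ± 0.08. Sdhd, of complex II, had a change of -0.14 ± 0.06 and Cox6c, of complex IV, one of -0.07 ± 0.03. The arrays of all 4 were apart.

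**Figure D4:**
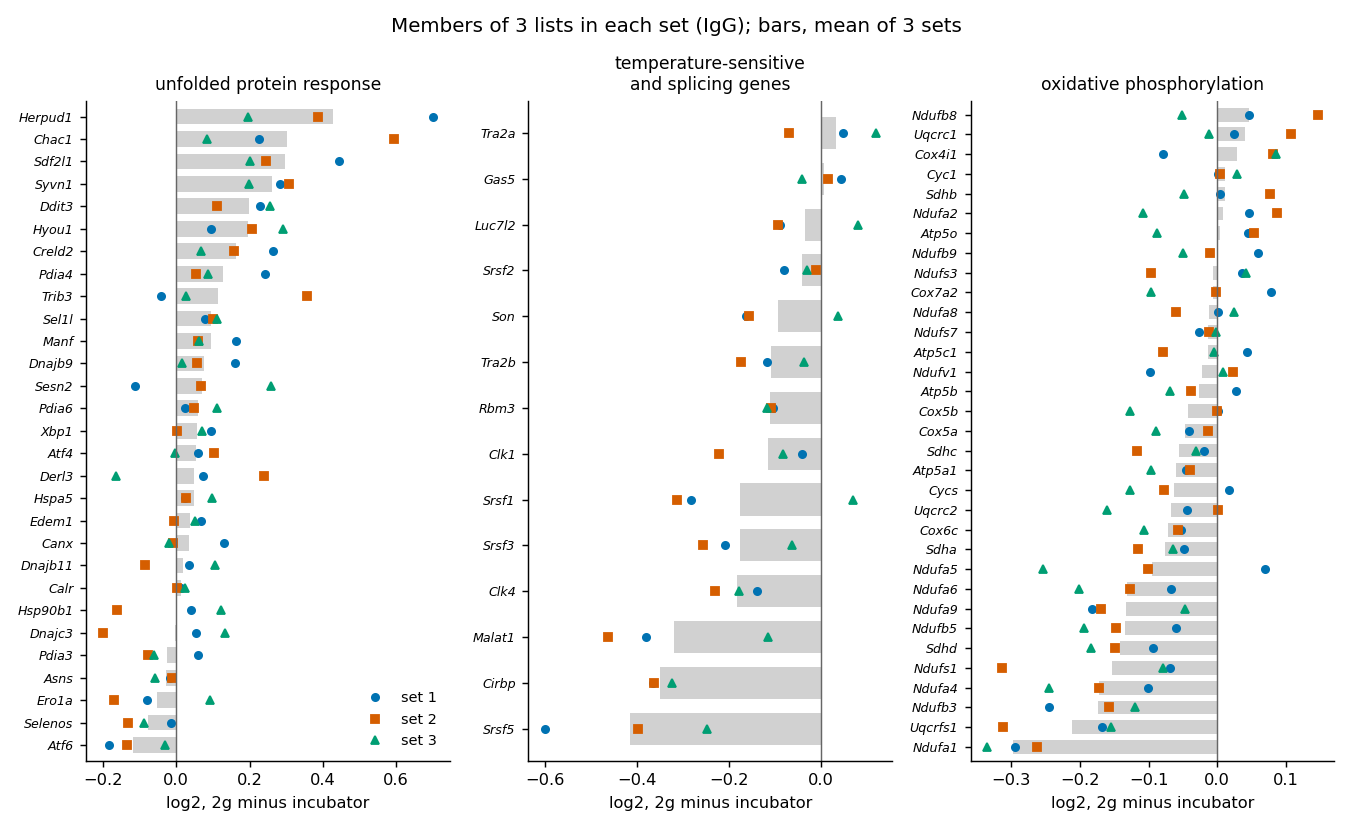
Log2 level at 2g minus that in the incubator for the tested members of 3 lists. Bars give the mean of 3 sets and symbols give each set, some of which coincide, such as sets 1 and 2 for Cirbp (-0.36 each); 23 of 29, 2 of 14 and 7 of 33 members are higher.

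Apoptosis regulators were 15 of 21 lower, with a median of -0.09 and with Bik, described above, the exception by size. Casp4, an inflammatory caspase, stood at 8.47, 8.52 and 8.31 in the incubator and at 8.01, 8.05 and 7.79 at 2g. The arrays were apart and the sets near equal, at -0.46, -0.47 and -0.52; the change was -0.49 ± 0.12 (-28.6% on the linear scale, unadjusted p = 0.000595). Xiap, an inhibitor of caspases, had a change of -0.27 ± 0.13 and Casp12, a caspase of the endoplasmic reticulum, one of -0.40 ± 0.23, both with overlapping arrays.

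YAP and SRF targets with actin genes, which respond to tension in many cells, were 16 of 23 lower with a median of -0.06. At an unadjusted p under 0.05 there were 0. Of the 23, 18 are brighter genes, and 36.1% of all 7245 brighter genes were higher at 2g. After quantile normalization 13 of the 23 were lower, and after cyclic loess 14 were. Ajuba, a LIM protein of adhesion sites, had a change of -0.18 ± 0.12, Fhl2 one of -0.24 ± 0.17, the kinase gene Lats2 one of -0.13 ± 0.09 and Myl9, a myosin light chain, one of -0.15 ± 0.12. Tubulins, kinesins and centrosome genes were 14 of 18 lower with a median of -0.05. Mzt1, which helps recruit the gamma-tubulin ring, stood at 10.48, 10.62 and 10.29 in the incubator and at 10.19, 9.99 and 10.07 at 2g, a change of -0.38 ± 0.14, and its second row had a change of -0.23. Tubg1 had a change of -0.06 ± 0.05, Cep57 one of -0.24 ± 0.20 and Kif5b one of -0.25 ± 0.25.

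Immediate early genes, the quickest transcriptional response to many stimuli, differed in direction between sets. Of 30 tested, 18 were higher with a median of 0.04, yet the set medians were -0.12, 0.20 and -0.04, and without set 2 the count was 5 higher and 25 lower with a median of -0.09. None had an unadjusted p under 0.05. Ptgs2, the prostaglandin synthase COX-2, stood at 13.23, 13.04 and 13.04 in the incubator and at 13.13, 12.94 and 12.96 at 2g, a change of -0.10 ± 0.07. Arc had a change of 0.27 ± 0.24, Dusp5 one of -0.23 ± 0.20 and Jund one of 0.08 ± 0.07.

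The osteocyte markers were 7 of 11 higher with a median of 0.02, or 5 of 11 without set 3 (median -0.02). Sost stood at 6.86, 6.88 and 6.97 in the incubator and at 7.08, 7.09 and 7.11 at 2g. The arrays were apart at this low level, and the change was 0.19 ± 0.09 (unadjusted p = 0.0464). Capg, an actin-capping protein, had a change of 0.09 ± 0.04, and Fap, a membrane protease, one of -0.29 ± 0.12. Gja1, the gene of Cx43, stood at 11.59, 11.55 and 12.002 in the incubator and at 11.54, 11.48 and 12 at 2g. Its change was -0.04 ± 0.18, with overlap, and each 2g array lay within 0.08 of the incubator array of its set.

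Marker lists of other cell types differed in direction. All 5 epithelial markers tested were higher (median 0.17), as were 8 of 9 endothelial markers (0.12), 6 of 7 chondrocyte markers (0.09), 5 of 7 muscle markers (0.09) and both lymphocyte markers (0.18). Most of these are dimmer genes, whose median change was 0.06, and cyclic loess brought the epithelial and endothelial medians to 0.11 and 0.06. Cdh1, the epithelial cadherin, stood at 5.92, 5.73 and 5.97 in the incubator and at 6.14, 6.09 and 6.13 at 2g, a change of 0.24 ± 0.08. Krt18, a keratin, had a change of 0.20 ± 0.09 and Cd8a, a T cell coreceptor, one of 0.29 ± 0.09, while Epcam, Emcn, Kdr, Cd3g and Cd79a were below the filter. Values for Cldn4 (0.17 ± 0.08), Krt5 (0.09 ± 0.12), Cd3e (0.08 ± 0.11), Tie1 (0.14 ± 0.07), Pecam1 (0.23 ± 0.12), Tek (0.14 ± 0.07) and Robo4 (0.16 ± 0.12) missed an unadjusted p of 0.05. The chondrocyte and muscle markers with the smallest p missed it as well: Col2a1 (0.18 ± 0.09), Col11a1 (0.09 ± 0.08), Col9a1 (0.12 ± 0.12), Comp (0.07 ± 0.10), Myh11 (0.11 ± 0.09), Des (0.11 ± 0.09), Ckm (0.09 ± 0.08) and Acta2 (-0.20 ± 0.19). Fibroblast markers were 3 of 7 higher (median -0.02), macrophage and osteoclast markers 3 of 8 (-0.01) and neuron markers 2 of 3 (0.01). Adipocyte markers were 3 of 5 lower with a median of -0.08, among them Lpl (-0.16 ± 0.16) and Pparg (-0.08 ± 0.08), with Cidec (0.14 ± 0.09) and Plin1 (0.04 ± 0.08) higher; the value of Plin1 turned negative after either normalization.

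The lists that follow had medians between -0.04 and 0.08. NRF2 targets were 18 of 23 lower with a median of -0.04, cytosolic ribosomal proteins 14 of 18 lower (-0.03) and prostaglandin genes 8 of 12 lower (-0.04). All 18 ribosomal protein genes are brighter genes, and 12 and 11 of them were lower after quantile and cyclic loess normalization. Interferon response genes were 15 of 19 higher (0.06), with set 2 on the other side (-0.05). Osteoblast markers were 4 of 4 higher (0.08) and replication-dependent histones 3 of 5 (0.08). The mechanosensing channels and purinergic genes were 10 of 17 higher (0.04), Wnt and BMP signalling 9 of 20 (-0.01), osteoclast control 3 of 7 (-0.02), and connexins and pannexins 4 of 9 (-0.02). 

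Whether the values at 2g differed from those elsewhere on the platform was tested within the same fit. Against 1g, 0 genes were called (0%) and 259 (1.79%) had an unadjusted p under 0.05, or 725 (5%) with the set block. Against ug, 0 were called and 103 (0.711%) had such a p, or 269 (1.86%) with the block. The smallest adjusted p was 0.962 in these comparisons, block included. Each position set against the incubator uses the same 3 incubator arrays, so the values that follow are given side by side and not compared. Without the block 0 genes were called at 1g against the incubator (0%), and with it 7 were (0.0483%), among them Banp (limma, adjusted p = 0.0127), Serpinh1 (adjusted p = 0.0213), Hspb1 (adjusted p = 0.0432) and Olfr810 (adjusted p = 0.0492). At 2g the blocked adjusted p was 0.053 for Banp and Serpinh1. Herpud1 had a change of 0.35 at 1g and 0.30 at ug beside 0.43 at 2g. Banp had a change of 0.51, 0.46 and 0.40 in that order, Serpinh1 one of 0.32, 0.25 and 0.27, and Hspb1 one of 0.36, 0.31 and 0.25. Cirbp had a change of -0.27, -0.35 and -0.35, Srsf5 one of -0.34, -0.32 and -0.41, and Riok1 one of -0.29, -0.36 and -0.43.

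A few named genes differed more between 2g and 1g, none past the threshold over all genes. Myo18b was 0.32 ± 0.10 higher at 2g than at 1g (unadjusted p = 0.00555) and Mir341 0.26 ± 0.12 higher (unadjusted p = 0.0452). The difference was -0.24 ± 0.13 for Ndufa1 and -0.13 ± 0.06 for Sdhd (unadjusted p = 0.0747 and 0.037). The median change of the oxidative phosphorylation list was 0.00 at 1g, -0.01 at ug and -0.05 at 2g, each against the incubator. For the unfolded protein response those medians were 0.02, 0.02 and 0.06, and for the temperature-sensitive and splicing genes -0.13, -0.05 and -0.11.

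The arm given Cx43(E2) shares no array with the IgG arm and allowed the same step from incubator to 2g to be read again. There 0 genes were called (0%), 285 (1.97%) had an unadjusted p under 0.05, or 712 (4.91%) with the block, and the arrays of 694 genes (4.79%) did not overlap. Across genes the changes of both arms correlated at -0.05, a description over 14489 genes that are not independent. Of the 601 genes picked as higher under IgG, 213 (35.4%) were higher under E2, beside 43.6% of all genes and 37.4% of dimmer genes; their median change was -0.03. Of the 428 picked as lower, 272 (63.6%) were lower under E2 and 156 higher, with a median of -0.03, beside a median of -0.01 over all genes. Of the 428, 207 are brighter genes and 221 dimmer. Under E2 43.6% of all genes, 49.8% of brighter genes and 37.4% of dimmer genes were higher, and most of the rest were lower.

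The difference between the arms was itself tested. No gene passed (0%), with a smallest adjusted p of 0.421, or 0.255 with the block, and 866 genes (5.98%) had an unadjusted p under 0.05, or 1688 (11.7%) with the block. Cirbp had a change of -0.25 ± 0.15 under E2, near its change under IgG, and its difference between the arms was -0.10 ± 0.21. Herpud1 had a change of 0.11 ± 0.16 under E2; its levels there were 11.08, 11.15 and 10.84 in the incubator and 11.34, 11.21 and 10.86 at 2g. Of those incubator levels, 2 lay within the range of the IgG arrays at 2g and 1 below it, and the difference between the arms was 0.31 ± 0.22. Syvn1 had a change of -0.04 ± 0.10 under E2, from incubator levels of 10.33, 10.38 and 10.33, and Serpinh1 one of 0.10 ± 0.07, from 10.91, 10.90 and 10.89. Srsf5 had a change of -0.03 ± 0.14 under E2 from levels of 9.27, 9.23 and 9.46, so its incubator arrays too lay near the IgG arrays at 2g. The number of E2 members higher was 19 of 29 for the unfolded protein response (median 0.05) and 25 of 33 for oxidative phosphorylation (median 0.03), while 10 of 14 temperature-sensitive and splicing genes were lower (median -0.03).

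**Figure D5:**
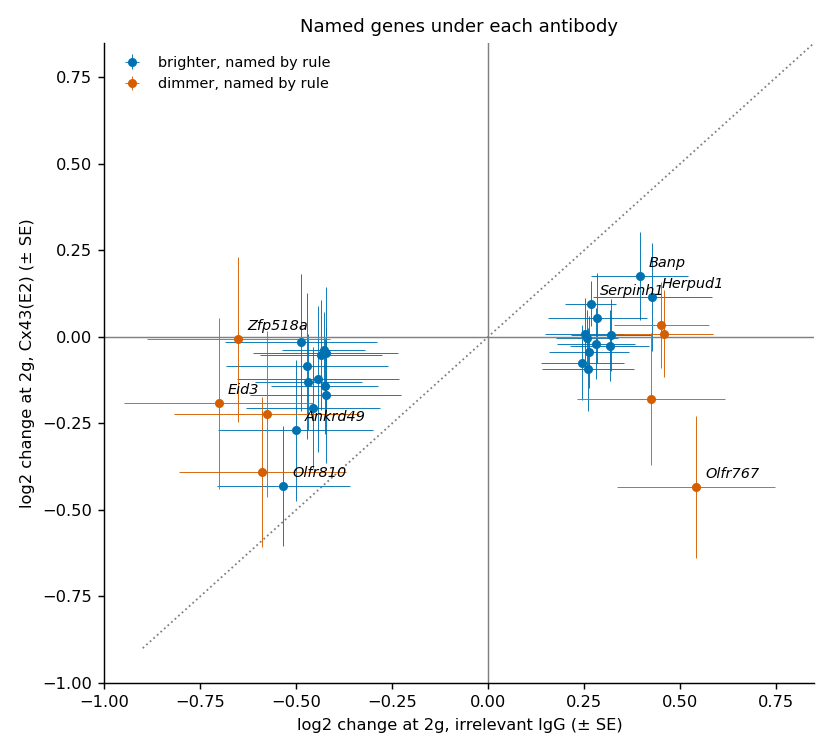
Log2 change at 2g under the irrelevant IgG (horizontal) and under Cx43(E2) (vertical), each ± SE, for the 12 brighter and 4 dimmer genes with the largest change in each direction. The genes were picked on the horizontal values; the dotted line marks equal change, and Olfr767 lies farthest from it, at 0.54 and -0.44.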

How the data were processed

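The deposited table holds log2 intensities for 35556 rows (probe sets) on 24 arrays; the log2 scale was judged from the values, which run from 2.36 to 14.06. MAS5 is named per the submitters' processing notes, with no role or version; the normalization between arrays is not given in the sources used here. Groups were taken from sample titles. Rows with exactly 1 gene symbol (21789; 1621 had several and 12146 none) were kept when at or above the 40th percentile of values on 3 or more of the 24 arrays, and the row with the highest mean gave the gene. limma 3.58.1 in R 4.3.3 fitted 8 group means over 24 arrays (moderated variances with a trend, two-sided, Benjamini-Hochberg over 14489 genes, threshold 0.05), without a block. The 6855 rows without 1 symbol that passed the filter were tested apart: 0 were called and 430 had an unadjusted p under 0.05. Intensities carry no read depth; precision is set by how many arrays a group has.

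Arrays of 2g and incubator with the same title number deviated together from their group means (r across genes 0.349 to 0.680). Over the 18 same-number pairs of the IgG arm r was 0.246 to 0.756. Sets 1 and 2 also deviated together across numbers. The 2g array of set 1 and the incubator array of set 2 had r 0.333, and the reverse pair 0.361. Both sets went against set 3, such as -0.502 for the 2g array of set 1 with the incubator array of set 3. These values part set 3 from the others but cannot show that numbers 1 and 2 pair arrays. Title numbers were nevertheless treated as pairing arrays in each arm. No label states this pairing, and the set block uses it. Alternatives were blocks, quantile and cyclic loess normalization, no filter, averaging all rows of a gene, variances without the trend, a fit to the 2 groups compared alone, and omission of single sets or arrays; combinations with the block were added after the data were seen. Genes were named by rule: among genes with an unadjusted p under 0.05, arrays that do not overlap and the same direction in 3 sets, the 12 largest of each direction among brighter genes and the 4 largest among dimmer ones; Gja1; and, from lists described by members, as many as 4 with the lowest p. Others are said to be chosen after their values were seen. The comparison, the lists and the rules were chosen with earlier results of these data known. Promoter windows are RefSeq's (GRCm38.p6). The code was tested on simulated data.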

Additional observations from a re-analysis of the deposited data

Results flagged for a closer look

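Of the 87 genes named by rule, 9 had a 2g array above the incubator array in all 3 IgG sets and below it in all 3 E2 sets, or the reverse. Many of the 87 were chosen for having the same direction in the 3 IgG sets. The share of all genes with this pattern was not counted, so the 9 are a description only. The difference between the arms (IgG minus E2) was tested for each of the 9, and none passed over all genes (limma, adjusted p 0.811 to 0.943). Olfr767, an olfactory receptor gene, differed by 0.98 on the log2 scale and Stpg3 by 0.60, both resting on set 2 of the IgG arm. Among markers, Tek of endothelium differed by 0.28, Col2a1 of cartilage by 0.26, Cidec of fat cells by 0.21, Lpl by -0.29 and Acta2 of smooth muscle by -0.27. Uqcrfs1 of the respiratory chain differed by -0.32, with IgG sets at -0.17, -0.31 and -0.15 and E2 sets at 0.13, 0.04 and 0.17. Sost differed by 0.25, with IgG sets at 0.23, 0.20 and 0.14 and E2 sets at -0.05, -0.05 and -0.08. Groups of 3 arrays were not examined for outlying arrays.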

How the results depend on the processing

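No gene was called for 2g against the incubator under the alternatives run, except when the set block was joined with quantile or with cyclic loess normalization, which called 2 genes each (Banp and Serpinh1); 2g against ug called 3 genes without set 2 when blocked. Over the alternatives, 1980 values of 87 named genes kept direction and side of the threshold, 4 passed it and 17 turned sign. The blocks, variances without the trend and the fit to the 2 groups alone leave the change of a gene as it is. They could move only its p-value, so part of the agreement in direction was fixed in advance. The count at an unadjusted p under 0.05 (1272) was 2555 with the set as a replicate block, 2283 with it as a random block, 2182 with quantile and 2211 with cyclic loess normalization plus the block. Leaving out sets or arrays gave 181 to 2669, or with the block 574 (without set 2), 2232 (without set 1) and 2994 (without set 3). Genes whose arrays do not overlap (2794) were 3443 to 8214 with fewer arrays, by construction, and with the block 4982, 4400 and 8214 without sets 1, 2 and 3. The percent of genes higher (50.2) was 56.8 after quantile normalization with or without the block, 55.6 with no filter and 47.8 to 54.0 without single arrays. In the paired analysis, the set as a replicate block called 7 genes at 1g against the incubator, where 0 were called without it, and left the counts of calls at 0 for 2g against the incubator (both arms), 1g and ug and for the difference between the arms. Signs turned for Plin1 (-0.0213 after quantile, -0.0343 after cyclic loess, and -0.0059 to 0.0669 without single sets or arrays), Cspp1 (-0.0652 as the mean of its rows), and without single sets Krt5 (-0.0118 to 0.2675), Col9a1 (-0.0053 to 0.2622) and Comp (-0.0122 to 0.1785), and Gja1 without single arrays (-0.207 to 0.0998); Plin1, Krt5, Col9a1 and Comp gave the same values with the block. The causes were not tested. List medians changed sign for 6 of 40 lists after quantile normalization and 3 after cyclic loess, none of them among the lists described by members. Without sets 1, 2 and 3 they changed sign for 8, 4 and 7 lists. Of the lists described by members, the immediate early genes turned without set 2 and the osteocyte markers without set 3.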

Other observations

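Genes outside the lists described by members held single members with small unadjusted p-values, chosen after their values were seen and none past the threshold over all genes. Gja3, a connexin of the lens, was higher by 0.25 ± 0.08, and Hlf, a clock-output transcription factor, by 0.24 ± 0.09. Slc16a3, a lactate exporter, was higher by 0.26 ± 0.09, while the oxygen sensor Egln3 was lower (-0.15 ± 0.07). Ireb2, which controls iron genes through their RNA, was lower (-0.43 ± 0.18), as were Itga1, a collagen receptor subunit (-0.27 ± 0.10), Fgf7, a fibroblast growth factor (-0.29 ± 0.11), and Rrm2, a subunit of ribonucleotide reductase (-0.14 ± 0.04).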
